A study of Mus musculus with 6 samples.

Results

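The Wnt ligands, their receptors, inhibitors and effectors were examined in C2C12 cells, an established mouse myoblast line, after 4 h of cyclic stretch. The genes were taken by symbol from the deposited table: every Wnt, Frizzled, Sfrp, Dkk, Rspo, Lgr4 to Lgr6 and Tcf7 symbol together with 23 further named pathway components, which gave 70 of 22375 rows. RNA-seq libraries were compared between a control group kept without stretching (CON, n = 3) and a group stretched at 15% elongation for 4 h (4H, n = 3). Both groups were the same line, with no genetic change named in the labels, seeded near confluence on elastic plates coated with poly-lysine, and the stretch began after the cells had attached. The comparison asks which Wnt pathway transcripts differ when a muscle precursor cell is loaded mechanically. A myoblast line on coated plates lacks the nerve, vessel and stromal cells of muscle, so any Wnt signal from those cells is outside the model.

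Wnt ligands are lipid-modified secreted proteins that bind Frizzled receptors together with the co-receptors Lrp5 and Lrp6. In the canonical branch the receptors act through Dishevelled proteins to hold back the destruction complex of Axin, Apc and Gsk3b, so that beta-catenin accumulates and works with TCF/LEF factors on target genes. R-spondins bind Lgr receptors and protect Frizzleds from the ubiquitin ligases Znrf3 and Rnf43, whereas Dkk and Sfrp proteins are secreted and act against the signal. In skeletal muscle the pathway is known for its part in the commitment and differentiation of muscle precursors.

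Expression was given as FPKM, a read count scaled by transcript length and library size, so that levels of different genes can be set side by side. Sums of FPKM were 395790 to 397260 in CON libraries and 385146 to 387516 in 4H libraries, without overlap, and the depth in reads is unknown. Relative depth read from the lowest values differed by at most 1.58% between libraries. That search was limited in advance to small differences and rested on as few as 12 genes for a pair. It therefore cannot show that depth was equal. Across all genes the libraries correlated at 0.9915 to 0.9928 within groups and at 0.9666 to 0.9695 between groups, and no pair of columns was identical. Of the 8 myoblast markers, Des (70.4 to 91.6 FPKM), Chrna1 (20.5 to 35.9), Myf5 (8.75 to 16.8), Cdh15 (7.25 to 13.4) and Myod1 (4.48 to 18.8) were well above 0 in every library, Pax7 lay at 0.310 to 0.605, and Myog and Myf6 were at 0 in some libraries and at most 0.281 and 0.108. Myod1 went from 4.48 to 5.55 FPKM in CON to 17.4 to 18.8 in 4H, and Des, Chrna1 and Cdh15 were also higher in every 4H library than in any CON library, while Myf5 was lower in every 4H library than its 15.3 to 16.8 FPKM in CON. The 8 markers together summed to 121.1 to 122.0 FPKM in CON and 160.2 to 168.6 in 4H. The 6 fibroblast markers summed to 10.4 to 11.4 FPKM in CON and 12.6 to 14.1 in 4H, with Thy1 and Dpt at no more than 0.0341 in any library. The 4 immune markers summed to 6.73 to 8.51 and 15.0 to 17.6 FPKM, nearly all of it from Cd68, while Ptprc and Adgre1 were at 0 throughout. Endothelial and epithelial sums stayed at or below 0.553 FPKM, with Tie1 and Epcam at 0. The part of these shifts in the results that follow was not tested. In bulk RNA, fewer cells that express a gene and less of its RNA per cell cannot be told apart.

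Of the 70 genes, 39 averaged 0.5 FPKM or more across all 6 libraries and were tested, 17 were above 0 but below that level, and 14 were listed at 0 in every library. With limma on log2(FPKM + 0.5) and Benjamini-Hochberg adjustment over all 11593 genes tested, 9 of the 39 were higher and 5 were lower in 4H at an adjusted p of at most 0.05, and 25 were not called. Rspo1, among the lower genes, and Fzd3, not called, passed the filter through their CON level, and of the 37 genes at 0.5 FPKM or more in both groups 9 were higher and 4 lower. The called share was 35.9%, beside 46.7% of all genes tested (22.6% higher and 24.1% lower). The labels call the replicates biosamples without saying whether they were separate cultures, so the p-values measure the spread between these libraries. With a fold change of 2 or more in either direction required as well, 3 genes were differentially expressed, Lgr6 and Dkk2 higher and Fzd4 lower, where 3.88% of all genes tested met both thresholds (2.61% higher and 1.28% lower). The median log2 fold change of the 39 was 0.03, against -0.01 for all genes. The 3 CON and 3 4H values did not overlap in 19 of the 39, 12 with 4H above and 7 with 4H below, a share of 48.7% beside 56.7% of all genes (27.5% above and 29.2% below), and an exact two-sided permutation test of 3 against 3 cannot go below 0.1. The called share of the Wnt genes was thus not above that of all genes, and the large changes sat in a few of them, as the plot of fold changes by role shows.

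**Figure D1:**
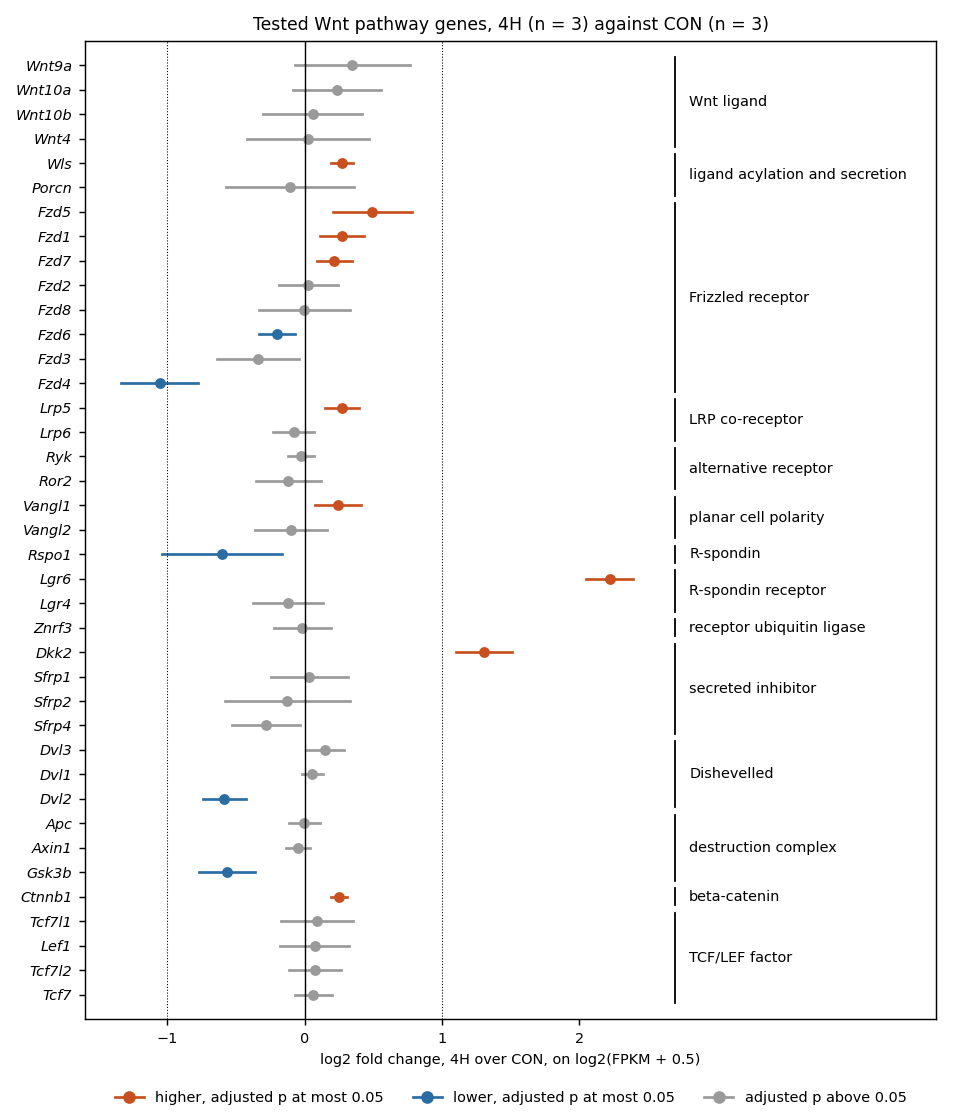
Log2 fold change of 4H over CON on the log2(FPKM + 0.5) scale for the 39 tested genes, grouped by role, with points for the limma estimate, bars for its 95% interval and dotted lines at a fold change of 2 in either direction. Lgr6 at 2.22 and Dkk2 at 1.31 lie above the upper line and Fzd4 at -1.06 lies below the lower one, while the other called genes lie between -0.60 and 0.49.

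To show the start regions of the differentially expressed genes, promoters were taken from RefSeq (GRCm38.p6), which held 48 of the 70 genes, as 250 bases before to 50 bases after a transcription start. Each is written 5′ to 3′ on the strand of its gene, and capitals mark letters found by a search of both strands for 4 motifs. The core of a TCF/LEF site was searched as CTTTGAT or as CTTTGAA. The AP-1 site was searched as TGAGTCA, and the box that can position the start as TATAAA. Lgr6 (chr1:135105227-135105526, minus strand) and Fzd4 (chr7:89404116-89404415, plus strand) held none of these letters, and Dkk2 (chr3:132085042-132085341, plus strand) held TATAAA starting 32 bases before the start.
Lgr6: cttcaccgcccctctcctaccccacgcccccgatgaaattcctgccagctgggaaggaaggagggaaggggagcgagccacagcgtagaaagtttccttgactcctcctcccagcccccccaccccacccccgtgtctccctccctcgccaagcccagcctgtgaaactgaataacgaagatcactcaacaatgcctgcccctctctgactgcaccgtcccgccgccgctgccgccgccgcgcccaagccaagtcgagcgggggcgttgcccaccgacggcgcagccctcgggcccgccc
Dkk2: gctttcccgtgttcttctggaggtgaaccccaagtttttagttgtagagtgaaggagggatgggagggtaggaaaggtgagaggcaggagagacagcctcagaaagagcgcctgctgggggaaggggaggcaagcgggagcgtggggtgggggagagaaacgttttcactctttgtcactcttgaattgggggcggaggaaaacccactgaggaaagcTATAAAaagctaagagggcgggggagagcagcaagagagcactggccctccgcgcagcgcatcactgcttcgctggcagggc
Fzd4: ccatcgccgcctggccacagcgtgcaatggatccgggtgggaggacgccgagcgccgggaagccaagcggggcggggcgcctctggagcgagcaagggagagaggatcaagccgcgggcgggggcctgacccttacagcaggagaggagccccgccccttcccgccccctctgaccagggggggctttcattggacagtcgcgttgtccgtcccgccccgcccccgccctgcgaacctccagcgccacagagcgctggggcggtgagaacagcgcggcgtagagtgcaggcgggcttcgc

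Among the 58 promoters of the 48 genes, CTTTGAT was found in a promoter of Wnt11 (chr7:98834862-98835161, plus strand) and a promoter of Wnt5b (chr6:119449337-119449636, minus strand). They are shown because these are the 2 promoters with this form of the TCF/LEF letters. In Wnt11 it reads ATCAAAG, the same letters on the other strand, 51 bases before the start and is followed by TATAAA 29 bases before it. In Wnt5b it lies 71 bases before the start used there, which is inside the annotated gene. Both genes have other promoters in RefSeq, and these lack the TCF/LEF letters. The Wnt5b promoter at the start of the annotated gene (chr6:119544298-119544597, minus strand) held TGAGTCA 191 bases before that start.
Wnt11: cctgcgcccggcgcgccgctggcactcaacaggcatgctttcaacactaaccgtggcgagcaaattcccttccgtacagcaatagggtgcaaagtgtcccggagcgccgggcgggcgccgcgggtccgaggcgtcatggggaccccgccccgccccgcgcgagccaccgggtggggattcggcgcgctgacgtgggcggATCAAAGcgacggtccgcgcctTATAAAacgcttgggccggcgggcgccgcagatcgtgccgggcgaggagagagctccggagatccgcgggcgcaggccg
Wnt5b: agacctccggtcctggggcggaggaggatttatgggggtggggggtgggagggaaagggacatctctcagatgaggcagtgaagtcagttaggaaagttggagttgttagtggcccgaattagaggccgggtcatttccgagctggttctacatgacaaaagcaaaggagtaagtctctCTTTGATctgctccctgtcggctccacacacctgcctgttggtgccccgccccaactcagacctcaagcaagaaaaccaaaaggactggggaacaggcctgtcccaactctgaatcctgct
CTTTGAT occurred in 3.73% of all 32851 promoters in the table, CTTTGAA in 5.14% and either of them in 8.65%, against 3 of the 58 promoters here. TGAGTCA occurred in 5.20% of all promoters and in 3 of these, and TATAAA in 13.6% and 11. The promoters of the Wnt genes had a median GC content of 67.3% against 52.7% for all promoters. A match is a description of the letters and says nothing of whether a factor binds.

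Ligands came first in order of signal flow, and most were scarce. Of the 19 Wnt genes, 13 were detected in 1 or more libraries and 9 in every library, and 4 passed the level filter: Wnt10b, Wnt9a, Wnt4 and Wnt10a. Wnt10b, a ligand known to act on the choice between muscle and fat fates, had the highest level, with 3.36, 4.41 and 2.67 FPKM in CON replicates 1, 2 and 3 and 3.21, 3.70 and 3.88 in 4H. These groups overlapped, and the log2 fold change was 0.06 (95% interval -0.30 to 0.42, adjusted p = 0.779). Wnt9a was 1.25 ± 0.414 in CON and 1.70 ± 0.245 in 4H (SD, n = 3 each, adjusted p = 0.155), and Wnt4 was 1.08 ± 0.380 and 1.08 ± 0.158 (adjusted p = 0.931). Wnt10a did not overlap between groups, at 0.487 to 0.678 FPKM in CON and 0.688 to 0.874 in 4H, but did not pass the test (log2 fold change 0.24, adjusted p = 0.198). None of the 4 tested ligands was therefore called by limma, and 0 of them had an unadjusted p under 0.05, although Wnt9a passed when CON replicate 3 was left out (log2 fold change 0.52, adjusted p = 0.0400).

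Below the filter, 4 ligands had every 4H library above every CON library. Wnt7b, a ligand of both canonical and non-canonical signalling, was at 0.181, 0.253 and 0.0366 FPKM in CON and at 0.941, 0.656 and 0.823 in 4H. The lowest 4H library was thus well above the highest CON library, and the mean went from 0.157 to 0.807 FPKM, a ratio of 5.14. Wnt5b ranged over 0.209 to 0.355 FPKM in CON and 0.415 to 0.683 in 4H, Wnt11 over 0 to 0.0298 and 0.0976 to 0.212, and Wnt6 over 0.0284 to 0.0565 and 0.0854 to 0.165. Without the level filter these 4 were called higher, with a log2 fold change of 1.00 and an adjusted p of 0.00262 for Wnt7b, which thereby also reached the fold threshold, and adjusted p of 0.0296 for Wnt5b, 0.0111 for Wnt11 and 0.0407 for Wnt6. In that fit 17.9% of all genes were called higher. Low genes in general were more often higher in 4H: of 4983 rows above 0 and below the filter, 16.9% had 4H wholly above CON and 3.37% wholly below, 10.9% were called higher in the fit without a filter, and rows above 0 numbered 14125 to 14186 in CON libraries and 14899 to 14972 in 4H libraries. Their part in the ligand values was not tested. Wnt2b, Wnt5a, Wnt1, Wnt3 and Wnt7a overlapped between groups at no more than 0.236 FPKM, and Wnt2, Wnt3a, Wnt8a, Wnt8b, Wnt9b and Wnt16 were at 0.

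**Figure D2:**
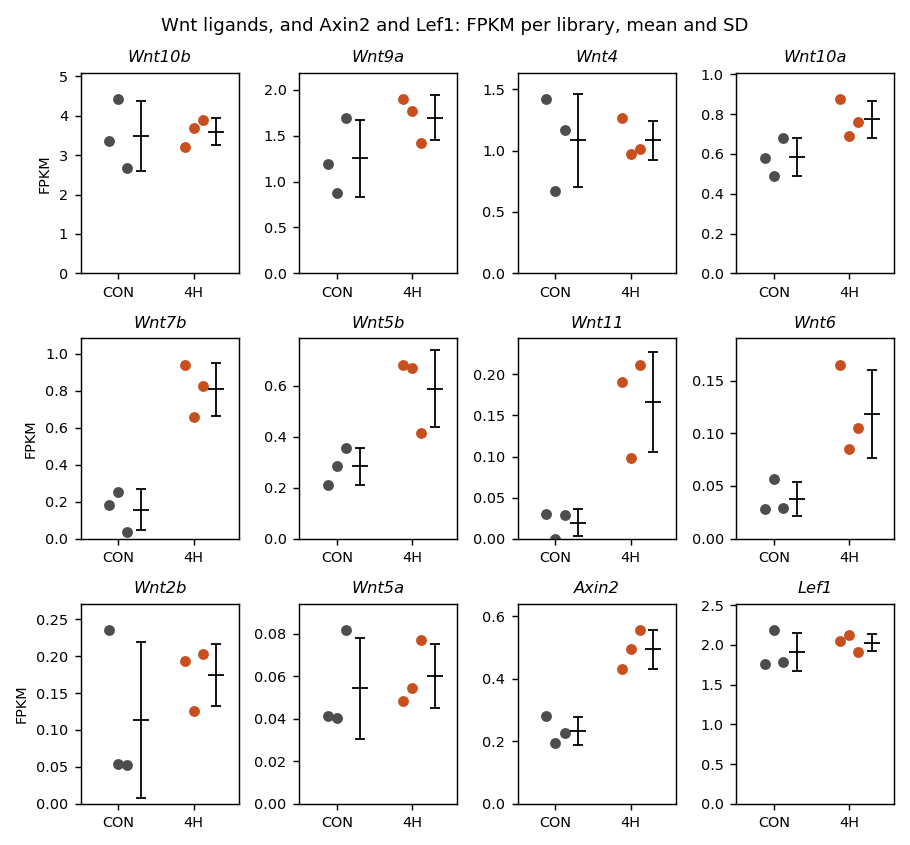
FPKM per library for the 10 ligands above 0.05 FPKM on average in at least 1 group, and for Axin2 and Lef1, with points for the 3 CON and 3 4H libraries and bars for mean and SD, each panel with its own axis from 0. Wnt7b, Wnt5b, Wnt11, Wnt6, Wnt10a and Axin2 have all 4H points above all CON points at levels under 1 FPKM, whereas the points of Wnt10b, at 2.67 to 4.41 FPKM, overlap.

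Summed over the 19 ligands, expression was 7.28, 7.13 and 6.83 FPKM in CON and 9.50, 8.93 and 8.94 in 4H. The 4H sums were all above the CON sums, with a ratio of means of 1.29. The 4 tested ligands held 90.0% to 90.8% of the sum in CON and 76.2% to 79.8% in 4H, while the share of Wnt7b went from 2.19% ± 1.53 to 8.82% ± 1.32 (SD, n = 3). Wnt10b held 49.1% ± 11.7 in CON and 39.5% ± 5.09 in 4H, a share whose groups overlapped.

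Ligand export was represented by a highly expressed gene and a modest one. Wls, which carries acylated Wnt proteins to the cell surface, was at 106.8, 111.2 and 110.4 FPKM in CON and 137.5, 129.4 and 130.3 in 4H. The groups were clearly apart, and the log2 fold change was 0.27 with an SE of 0.034 (adjusted p = 0.000318). The mean of Wls exceeded that of 95.9% of the genes tested. Porcn, the acyltransferase that attaches the lipid, was 2.65 ± 0.465 FPKM in CON and 2.47 ± 0.745 in 4H and was not called (adjusted p = 0.690).

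Of the 10 Frizzled receptors, 8 were tested, and 3 were higher and 2 lower in 4H, a called share of 62.5% over few genes, beside 46.7% of all genes. Fzd4, which besides Wnts also binds norrin, was at 1.91, 1.74 and 2.09 FPKM in CON and at 0.771, 0.623 and 0.590 in 4H. Every 4H library was below every CON library, the mean ratio was 0.346, and the log2 fold change was -1.06 with an SE of 0.122 (95% interval -1.34 to -0.77, adjusted p = 0.000222). The gene (ENSMUSG00000049791) lies at chr7:89404355-89413134 on the plus strand. With a pseudocount of 1 in place of 0.5 the change was -0.81, short of the fold threshold, as adding a constant understates the change of low genes. Fzd5 was higher, at 1.80, 1.49 and 1.30 FPKM in CON and 2.16, 2.26 and 2.63 in 4H (log2 fold change 0.49, SE 0.125, adjusted p = 0.0127). Its groups did not overlap.

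The more abundant Frizzleds moved by less. Fzd7, a receptor that has been tied to muscle stem cells, was 13.2 ± 0.756 FPKM in CON and 15.4 ± 0.366 in 4H (log2 fold change 0.21, adjusted p = 0.0137). Fzd1 was 7.59 ± 0.537 and 9.25 ± 0.367 (0.27, adjusted p = 0.0121). Fzd6 was lower, 14.9 ± 0.617 against 12.9 ± 0.691 (-0.20, adjusted p = 0.0214), although this call was lost when CON replicate 2 or 3 or 4H replicate 2 or 3 was left out (adjusted p = 0.0539 to 0.0690). Fzd3 had every 4H value, 0.419 to 0.550 FPKM, below every CON value, 0.712 to 0.758, passed the filter through its CON level, and did not pass the test (log2 fold change -0.34, adjusted p = 0.0628), although it was called without a level filter (adjusted p = 0.0170). Fzd2 (4.29 ± 0.499 and 4.37 ± 0.198 FPKM) and Fzd8 (0.675 ± 0.101 and 0.673 ± 0.114) were not called, Fzd9 lay between 0.235 and 0.556 FPKM in all libraries and Fzd10 was at 0.

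With calls in both directions, the Frizzled sum stayed close, from 45.1 ± 1.45 FPKM in CON to 46.4 ± 0.670 in 4H. Within it the share of Fzd6 went from 33.0% ± 0.977 to 27.7% ± 1.55 and that of Fzd4 from 4.25% ± 0.496 to 1.42% ± 0.203, whereas Fzd7 went from 29.2% ± 1.24 to 33.1% ± 0.604 and Fzd1 from 16.8% ± 0.723 to 19.9% ± 0.714. None of these 4 shares overlapped between groups.

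Among co-receptors and alternative receptors, Lrp5 was the gene that rose. It was at 13.3, 13.3 and 12.8 FPKM in CON and 16.9, 15.9 and 15.1 in 4H, with no overlap (log2 fold change 0.27, SE 0.054, adjusted p = 0.00414). Lrp6, its close relative, was 10.2 ± 0.723 and 9.58 ± 0.295 FPKM and was not called (adjusted p = 0.353). Ryk, a receptor of the tyrosine kinase family that lacks kinase activity, had the highest level of the receptor genes of the set at 45.3 ± 1.37 FPKM in CON and 44.4 ± 1.70 in 4H (log2 fold change -0.03, 95% interval -0.12 to 0.07, adjusted p = 0.607). Ror2, a receptor for non-canonical Wnt5 ligands, was 1.86 ± 0.146 and 1.67 ± 0.0989 FPKM (adjusted p = 0.377), and Ror1 stayed between 0.0492 and 0.287. Of the planar cell polarity membrane proteins, Vangl1 was 4.75 ± 0.145 in CON and 5.73 ± 0.353 in 4H (0.25, adjusted p = 0.0244, lost when CON replicate 2 or 3 or 4H replicate 2 or 3 was left out, at 0.0630 to 0.0774), and Vangl2 was 1.61 ± 0.0107 and 1.48 ± 0.199 (adjusted p = 0.499).

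Among the tested genes, the R-spondin arm held the largest log2 fold change. Lgr6 was at 1.34, 1.47 and 1.39 FPKM in CON and at 8.16, 8.30 and 8.57 in 4H. All 4H libraries were far above all CON libraries, with a mean of 1.40 ± 0.0667 against 8.34 ± 0.207 and a ratio of 5.97. The log2 fold change was 2.22 with an SE of 0.076 (95% interval 2.05 to 2.39, adjusted p = 2.99e-07), and it lay between 1.96 and 2.50 under all alternatives run. The gene (ENSMUSG00000042793) lies at chr1:134983301-135105276 on the minus strand of GRCm38, and no other annotated gene shares its exons.

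The other parts of this arm moved differently. Lgr4, the more abundant receptor of R-spondins in CON, was 4.86 ± 0.748 FPKM in CON and 4.40 ± 0.230 in 4H and was not called (log2 fold change -0.12, adjusted p = 0.404), and Lgr5 was at 0. The share of Lgr6 in the summed level of these receptors went from 22.5% ± 2.26 in CON to 65.5% ± 1.57 in 4H, and the sum itself from 6.26 ± 0.801 to 12.7 ± 0.199 FPKM, a ratio of 2.03. Rspo1, a ligand of these receptors, was at 0.904, 0.453 and 0.813 FPKM in CON and 0.400, 0.226 and 0.272 in 4H. All 4H values were below all CON values, with a log2 fold change of -0.60 and an SE of 0.189 (adjusted p = 0.0313). Rspo1 passed the filter through its CON level, the call was lost without 4H replicate 2 or 4H replicate 3 (adjusted p = 0.0878 and 0.0750), and without CON replicate 1 or 3 the gene fell below the filter. With a pseudocount of 0.1 its log2 fold change was -1.02. Rspo2 lay between 0.0351 and 0.269 FPKM with overlap, Rspo3 was above 0 in 1 library (0.0354) and Rspo4 was at 0. Znrf3, the ubiquitin ligase that R-spondins restrain, was 6.58 ± 0.689 and 6.48 ± 0.479 FPKM (adjusted p = 0.888), and Rnf43 did not exceed 0.0272.

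**Figure D3:**
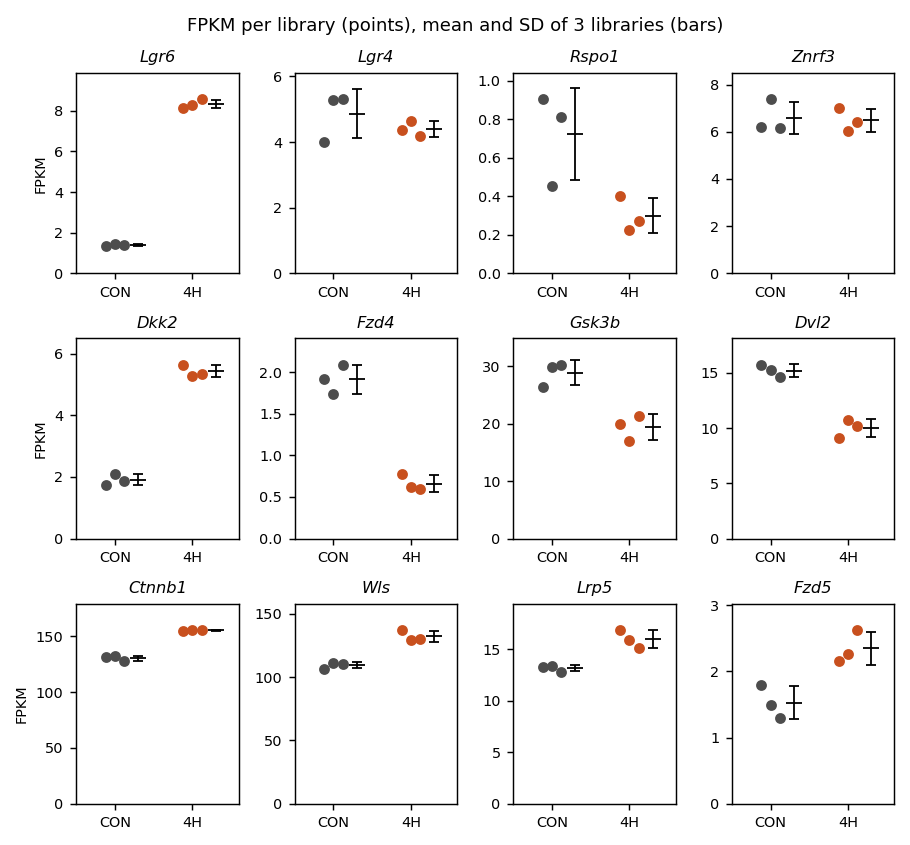
FPKM per library for 12 Wnt pathway genes, with points for the 3 CON and 3 4H libraries and bars for mean and SD, each panel with its own axis from 0. Lgr6 sits at 1.34 to 1.47 in CON and 8.16 to 8.57 in 4H while Lgr4 and Znrf3 overlap, and Fzd4, Gsk3b and Dvl2 have all 4H points below all CON points.

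Of 9 secreted inhibitors 4 were tested, and Dkk2 was called. Dkk2, which binds Lrp5 and Lrp6 at the cell surface and can act for or against the signal by context, was at 1.74, 2.10 and 1.87 FPKM in CON and 5.65, 5.29 and 5.36 in 4H. The groups were far apart, the ratio of means was 2.85, and the log2 fold change was 1.31 with an SE of 0.088 (95% interval 1.10 to 1.51, adjusted p = 1.02e-05). The gene (ENSMUSG00000028031) lies at chr3:132085292-132180304 on the plus strand. Sfrp4, a decoy that binds Wnt proteins, had 4H values of 1.86, 1.84 and 2.36 FPKM below CON values of 2.60, 2.48 and 2.58, but did not pass the test (log2 fold change -0.28, adjusted p = 0.0641). That call depended on the fit, with an adjusted p of 0.0377 without a mean trend and 0.0221 without 4H replicate 3. Sfrp1 (0.922 ± 0.114 and 0.954 ± 0.0470 FPKM) and Sfrp2 (0.921 ± 0.329 and 0.789 ± 0.187) overlapped and were not called. Dkk3 lay between 0.208 and 0.471 FPKM, and Dkk1, Dkk4, Sfrp5 and Wif1 were at 0. The inhibitor sum went from 6.61 ± 0.653 to 9.49 ± 0.112 FPKM, and the share of Dkk2 in it from 28.8% ± 1.40 to 57.2% ± 1.37, while Sfrp4 went from 38.9% ± 4.55 to 21.3% ± 3.13. In the Lgr, inhibitor, Frizzled and destruction complex families, the gene with the highest mean therefore differed between CON and 4H (Lgr4 then Lgr6, Sfrp4 then Dkk2, Fzd6 then Fzd7, and Gsk3b then Axin1).

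**Figure D4:**
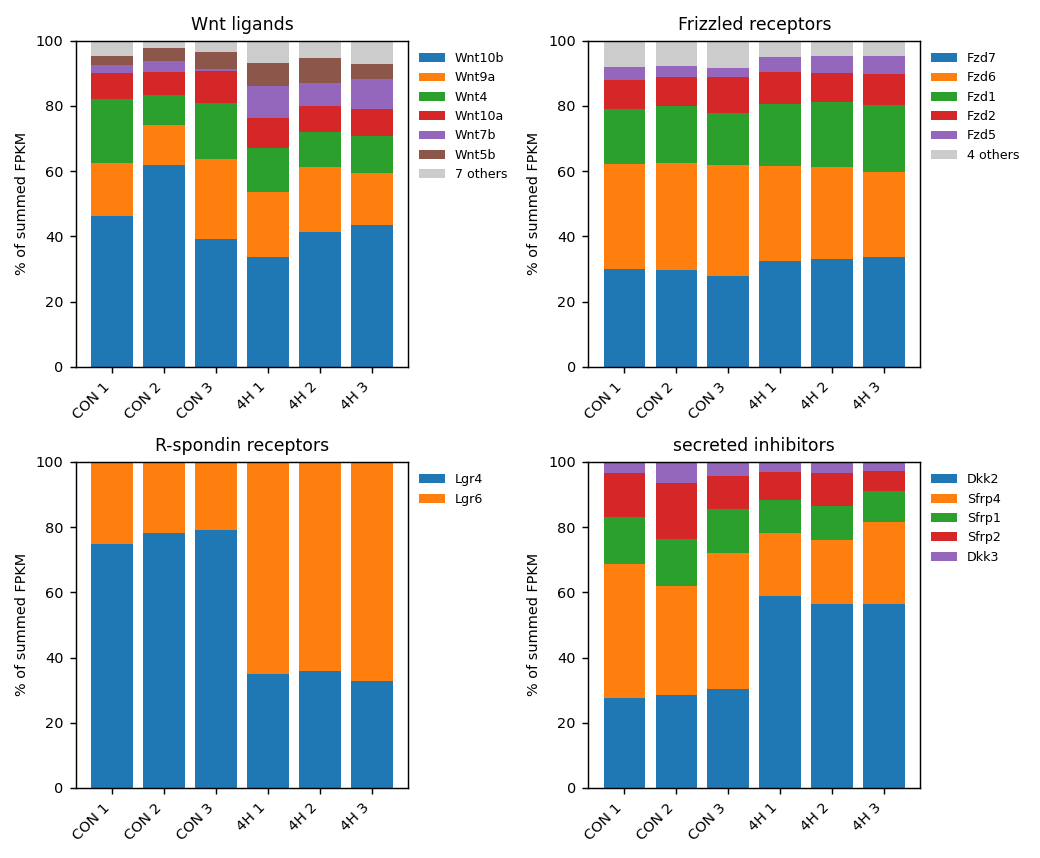
Share of each gene, in %, in the summed FPKM of its family, as stacked bars for each of the 6 libraries. Lgr6 fills 20.7% to 25.1% of the R-spondin receptor bar in CON and 64.1% to 67.2% in 4H, and Dkk2 27.6% to 30.3% and 56.4% to 58.8% of the inhibitor bar, while Fzd6 fills 32.2% to 34.1% of the Frizzled bar in CON and 26.0% to 29.0% in 4H.

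Inside the cell, 2 genes that work at the step between receptor and beta-catenin were lower. Dvl2, a Dishevelled scaffold, was at 15.8, 15.2 and 14.6 FPKM in CON and 9.08, 10.7 and 10.1 in 4H. The groups did not overlap (log2 fold change -0.59, SE 0.068, adjusted p = 0.000227). In the annotation the exons of Dvl2 overlap a microRNA gene on the same strand, Mir324, and Acadvl on the other, those of Ctnnb1 overlap Mir7090 and Ulk4 likewise, and those of Axin2, Dvl1, Fzd5, Fzd6, Lef1, Rspo3, Sfrp2, Tcf7l1, Vangl1, Wnt5a, Wnt7b and Wnt11 each overlap a gene on the other strand. The libraries kept strand, but whether the counting used it is not given in the sources used here. Dvl1 was 32.2 ± 0.460 and 33.5 ± 0.125 FPKM (adjusted p = 0.208) and Dvl3 was 13.2 ± 0.703 and 14.7 ± 0.647 (adjusted p = 0.0667), both without overlap and with 4H above CON, so that the Dvl2 share of the 3 Dishevelled genes went from 25.1% ± 0.564 to 17.2% ± 1.35. Nkd2, an antagonist of Dishevelled, overlapped at 0.111 to 0.358 FPKM, and Nkd1 was at 0.

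Gsk3b, the kinase that marks beta-catenin for removal, was at 26.3, 29.9 and 30.3 FPKM in CON and 19.9, 17.0 and 21.3 in 4H. Every 4H library was below every CON library (log2 fold change -0.56, SE 0.088, adjusted p = 0.00111). The scaffolds of the same complex were not called, with Axin1 at 25.3 ± 0.376 and 24.4 ± 0.555 FPKM (log2 fold change -0.05, 95% interval -0.14 to 0.04, adjusted p = 0.343) and Apc at 13.4 ± 0.320 and 13.4 ± 0.365 (adjusted p = 0.985). Ctnnb1, which encodes beta-catenin, was at 131.1, 132.2 and 127.9 FPKM in CON and 154.8, 155.2 and 155.8 in 4H. These narrow groups were well apart, with a log2 fold change of 0.25 and an SE of 0.026 (adjusted p = 0.000123). It had the highest level of the 70 genes, above 96.7% of the genes tested. These are RNA levels, and neither the amount nor the location of the beta-catenin protein was analysed here.

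The TCF/LEF factors, through which beta-catenin reaches its target genes, showed no called difference by limma, and 0 of the 4 had an unadjusted p under 0.05. Tcf7 was 9.24 ± 0.344 FPKM in CON and 9.66 ± 0.378 in 4H, Tcf7l1 4.57 ± 0.717 and 4.86 ± 0.319, Tcf7l2 3.77 ± 0.251 and 3.99 ± 0.220, and Lef1 1.91 ± 0.242 and 2.03 ± 0.105. All 4 overlapped between groups, with log2 fold changes of 0.06 to 0.09, adjusted p of 0.416 to 0.613 and upper 95% limits of at most 0.35. Their sum was 19.5 ± 0.826 FPKM in CON and 20.5 ± 0.532 in 4H. Over all 25 genes that were not called, the 95% limits of the log2 difference lay between -0.64 and 0.77, so a missed call does not show that a gene did not differ.

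Of the 70 genes, 8 are known targets of the canonical branch, 3 of them were tested and none was called. Axin2, the target most often used as a readout, was at 0.280, 0.193 and 0.225 FPKM in CON and 0.432, 0.495 and 0.557 in 4H. It was below the filter and wholly above CON in 4H, with a ratio of means of 2.12, and was called higher in the fit without a filter (log2 fold change 0.44, SE 0.076, adjusted p = 0.00536). As for the low ligands, this stands beside 16.9% of rows below the filter wholly above CON in 4H and 10.9% called higher in that fit, and the part of that shift in the Axin2 values was not tested. Lef1, Tcf7 and Znrf3, which are also targets, were not called, Rnf43 was barely above 0 in 2 4H libraries, and Nkd1, Lgr5 and Dkk1 were at 0 in all 6.

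Beyond the 70 genes, 6 lists of other pathway genes held 116 further genes of the table, of which 87 were tested, 28 higher and 17 lower (27 and 17 among the 85 at 0.5 FPKM or more in both groups), a called share of 51.7% beside 46.7% of all genes. Of 26 target genes outside the set, 19 were tested, with 10 higher and 3 lower. Their called share was 68.4%, beside 46.7% of all genes (22.6% higher and 24.1% lower). This list, like the others, was chosen with earlier results of these data known. Nrcam, 1 of the higher genes, passed the filter only through its 4H level (0.241 FPKM in CON and 0.847 in 4H), which leaves 9 higher and 3 lower among 18. Cd44, a hyaluronan receptor, was at 99.98, 104.5 and 99.5 FPKM in CON and 238.8, 224.1 and 239.9 in 4H (log2 fold change 1.20, adjusted p = 1.66e-07). Snai2, a repressor known from epithelial-mesenchymal transition, was at 43.5, 43.1 and 40.2 FPKM in CON and 17.99, 19.1 and 18.2 in 4H (log2 fold change -1.17, adjusted p = 6.45e-07). Id2, an inhibitor of helix-loop-helix factors, was 18.97 ± 1.82 and 38.7 ± 1.77 FPKM (log2 fold change 1.01, adjusted p = 1.13e-05). All of these genes are also controlled by other pathways, and the largest changes in the list ran in both directions.

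Cadherins and catenins, only some of which share or compete for beta-catenin at cell contacts, had 85.7% of their tested genes called, beside 46.7% of all genes (22.6% higher). Of 14 genes, 7 were tested and 6 were higher, with 0 lower by limma, also at an unadjusted p under 0.05, and Cdh11 not called (adjusted p = 0.276). Jup, or plakoglobin, the closest relative of beta-catenin, was at 3.66, 3.78 and 4.11 FPKM in CON and 12.4, 10.6 and 10.5 in 4H (log2 fold change 1.42, adjusted p = 4.69e-06). Cdh15, the cadherin of myoblasts, was 7.46 ± 0.321 and 12.3 ± 1.19 FPKM (0.68, adjusted p = 0.000210), and Cdh13 was 13.3 ± 0.462 and 18.9 ± 2.00 (0.49, adjusted p = 0.000960). With 7 genes tested that share rests on few values, in a list chosen with earlier results of these data known.

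The other lists were mixed, with called shares of 27.8% to 70.0% beside the 46.7% of all genes. Of 10 tested extracellular modulators, 3 were higher and 4 lower, and the 3 largest changes were falls. Igfbp4, a binding protein that also acts against Wnt receptors, was 4.17 ± 0.154 FPKM in CON and 0.824 ± 0.167 in 4H (log2 fold change -1.83, adjusted p = 8.26e-06). Serpinf1, a secreted serpin that binds Lrp6, was 322.4 ± 11.9 and 150.5 ± 11.2 (-1.10, adjusted p = 1.74e-06), and Adgra2, a co-factor of Wnt7 ligands in brain vessels, was 8.99 ± 0.475 and 4.22 ± 0.169 (-1.01, adjusted p = 1.10e-05). In the planar cell polarity and non-canonical list 7 of 22 tested genes were higher and 4 lower, with Prickle1, a core polarity gene, at 0.965 ± 0.189 and 3.34 ± 0.225 FPKM (1.40, adjusted p = 5.04e-05), Nfatc4 at -0.67 and Camk2g at 0.44 on the log2 scale. Of 18 tested intracellular antagonists and destruction complex genes, 2 were higher and 3 lower, including Siah1a (-0.37), Csnk1a1 (-0.29) and Ctnnbip1 (0.34), and of 13 nuclear cofactors 1 was higher and 3 lower, namely Bcl9 (-0.44), Ctbp1 (-0.34) and Bcl9l (-0.21). Across all the further lists, 8 of 87 tested genes met both thresholds for differential expression, beside 3.88% of all genes tested (2.61% higher and 1.28% lower). Of these 8, Jup, Cd44, Id2 and Prickle1 were higher and Igfbp4, Serpinf1, Adgra2 and Snai2 were lower.

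**Figure D5:**
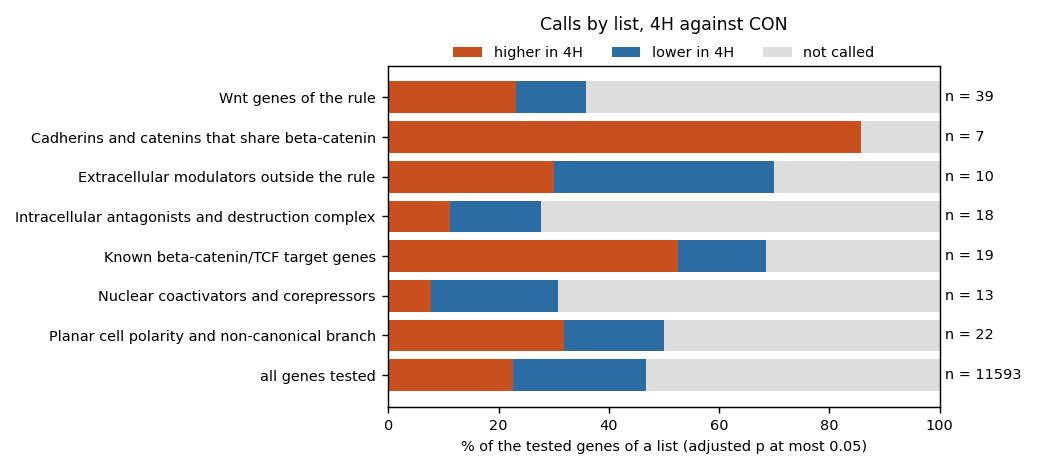
Percent of the tested genes of each list called higher (orange), lower (blue) or not called (grey) in 4H at an adjusted p of at most 0.05 (limma), with the number tested at the right of each bar. The 39 Wnt genes reach 35.9% called, beside the 46.7% of all 11593 genes, and the 7 cadherins and catenins reach 85.7%, with the 6 called genes all higher. The lists were chosen with earlier results of these data known.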

How the data were processed

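RNA was sequenced from 3 CON and 3 4H libraries of C2C12 cells, prepared strand-specifically from poly(A) RNA. The authors deposited 1 table of FPKM per gene, with all columns used here. The submitters' processing notes name mm10, whereas the aligner, counter and annotation were not given in the sources used here. FPKM holds no counts, so the study's count model was replaced by limma 3.58.1 in R 4.3.3 (lmFit, eBayes with a mean trend, two-sided) on log2(FPKM + 0.5), over genes averaging 0.5 FPKM or more, with Benjamini-Hochberg adjustment. Calls used an adjusted p of at most 0.05, and differential expression also a log2 fold change of 1 or more in either direction. The fit was tested on simulated data. Fold changes on this scale understate changes of low genes, and precision rests on 3 libraries a group.

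Groups came from the treatment labels, and 4H replicates 1, 2 and 3 are the libraries titled 4H1, 4H3 and 4H4. The genes, roles and lists were chosen with earlier results of these data known. Every member with a mean of at least 0.5 FPKM could be named, others by range, and in each further list the 3 largest changes among called genes at a mean of at least 1 FPKM and any differentially expressed gene. Wnt7b and Axin2 by library, Cdh11 by its p, and the AP-1 and TATA letters were added after values were seen. Positions came from GENCODE (GRCm38) and promoters from RefSeq. Alternatives were other pseudocounts, filters and scalings, no trend, a replicate block, a fold threshold on mean FPKM, and leaving out each library. Tables and plots used Python 3.11.15, numpy 2.4.6, pandas 2.3.3 and matplotlib 3.10.9.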

Additional observations from a re-analysis of the deposited data

How the results depend on the processing

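Of 577 log2 fold changes of the 39 tested genes over 15 alternatives, 535 kept both direction and call, and the 3 differentially expressed genes kept direction and an adjusted p of at most 0.05 in all of them. Genes called higher numbered 9, and 14 without a level filter, where Wnt5b, Wnt6, Wnt7b, Wnt11 and Axin2 entered the test, or 13 after rescaling to TPM, where Dvl3, Wnt5b, Wnt7b and Axin2 were gained. Genes called lower numbered 5, and 3 to 5 with a library left out, with 3 without CON replicate 3 or 4H replicate 2, and up to 7 under quantile normalization or without a trend. Differentially expressed genes numbered 3, with 2 at a pseudocount of 1 and 4 at a pseudocount of 0.1 or with the fold threshold on mean FPKM, each adding Rspo1, and 4 without a filter, after rescaling to TPM or without CON replicate 1 or 2, each adding Wnt7b. The paired fit with a block by replicate number, not by library title, called 8 higher, 4 lower and 3 differentially expressed, and lost Fzd6 (adjusted p = 0.0522) and Vangl1 (0.0582). Deviations of libraries with the same replicate number correlated at 0.025, -0.093 and -0.126, and no library correlated best with its own number, so the replicate numbers were not treated as pairs. Titles number the libraries otherwise, and those titled C3 and 4H3 (CON replicate 3 and 4H replicate 2) correlated at 0.176, the highest value between the groups. Pairing by title was not fitted. Of the tested genes not called, calls were gained by Dvl3 after rescaling to TPM (0.0365), by Fzd3 without a filter (0.0170), under quantile normalization (0.0156) and without a trend (0.00474), by Sfrp4 under quantile normalization (0.0250), without a trend (0.0377) and without 4H replicate 3 (0.0221), and by Wnt9a without CON replicate 3 (0.0400). After rescaling to TPM and without CON replicate 1, 2 or 3, Wnt7b passed the filter only through its 4H level, so that its higher calls and added counts there are no independent support. Direction turned only in genes that were not called. Under quantile normalization the log2 fold change was -0.016 for Fzd2, -0.023 for Lef1, -0.098 for Wnt4 and -0.102 for Sfrp1, and after rescaling to TPM it was 0.023 for Fzd8, 0.0076 for Ryk, 0.034 for Apc and 0.017 for Znrf3. With a library left out it ranged from -0.044 (without CON replicate 1) to 0.104 for Fzd2, from -0.027 (without CON replicate 1) to 0.178 for Tcf7l1, from -0.093 (without CON replicate 3) to 0.224 for Wnt10b, from -0.016 (without CON replicate 3) to 0.097 for Sfrp1, from -0.283 to 0.047 (without CON replicate 2) for Sfrp2 and from -0.234 to 0.121 (without 4H replicate 3) for Porcn. It ranged from -0.180 to 0.177 for Wnt4, negative without CON replicate 2 or 4H replicate 1, from -0.019 to 0.019 for Apc, positive without either of these, and from -0.054 to 0.080 for Fzd8 and -0.070 to 0.061 for Znrf3, both positive without CON replicate 2 or 4H replicate 2. The cause of these turns was not tested. A filter at a mean of 1 FPKM left 33 of the 39 genes, and Rspo1 gave no value without CON replicate 1 or 3. The 18 called genes named from the further lists kept direction and call in all 270 values, and Cdh11 was not included. Because FPKM holds no depth, no counting error can be given for the ligands near 0.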
